A study of Mus musculus with 2 samples.

Results

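MiR-22 is a microRNA (miRNA), a short RNA that guides the silencing machinery to messenger RNAs carrying a match to its seed, the bases near its 5′ end. It was read here by 1 probe, hsa_miR_22, printed as 4 spots on each array among the 1728 spots of the array. No probe with a mouse or rat prefix carries the name, and none is named for the opposite strand. The probe was chosen by its name and because earlier results of these data showed it to be higher with BMP7, so its rise is given as a description and not as a test. Controls aside, the array holds 377 probes, and 256 of these stand for 1 mouse miRNA each.

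The study compared C3H10T1/2 cells, a mesenchymal cell line from mouse embryos with the capacity to form fat, bone and cartilage cells, after 3 days with BMP7 at 3.3 nM or with vehicle. BMP7 belongs to the bone morphogenetic proteins, which cells secrete and whose receptors activate SMAD transcription factors. Total RNA of each group was tailed with poly(A), labelled with the dye Cy3 and put on 1 array per group. There is therefore no replicate check and no p-value, the number of arrays limits the precision, and the errors below are spreads over the 4 spots of a probe within an array. The signal comes from bulk RNA, in which fewer expressing cells and less miRNA per cell cannot be told apart.

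MiR-22 is made from a hairpin within the transcript of a long noncoding host gene and is found in many tissues. It is known from human mesenchymal cells, where it favours bone formation over fat formation through the messenger RNA of the deacetylase HDAC6, and from human cartilage cells, where it binds the messenger RNA of BMP7 itself. Human and mouse share the mature sequence of its 3′ strand, so the human prefix of the probe does not separate the species. Old names without a strand stand for this 3′ strand. The probe's own letters are not used here.

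The sequences of the gene are shown because they say what the probe is meant to read and which other miRNAs could be taken for it. They are from RefSeq (GRCm38.p6), where Mir22 lies on the plus strand at chr11:75463716-75463810, with the 5′ strand at chr11:75463734-75463755 and the 3′ strand at chr11:75463772-75463793. In that annotation it overlaps the host gene Mir22hg and stands between Wdr81 and Tlcd2. The nearest miRNA genes on the chromosome are Mir132, 289969 bases before it, and Mir3971, 87619 bases after it. Capitals mark the seed (bases 2 to 8) in the mature sequences and both mature strands in the 95-base hairpin.
miR-22-3p: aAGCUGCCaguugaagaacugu
miR-22-5p: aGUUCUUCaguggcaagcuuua
Mir22 hairpin: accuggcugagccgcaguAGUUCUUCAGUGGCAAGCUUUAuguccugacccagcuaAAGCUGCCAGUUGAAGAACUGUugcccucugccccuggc

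No other mouse miRNA in the RefSeq table shares this seed: it was found in 0 of 1678 other mature sequences, and 4 of them hold its 7 letters elsewhere. The closest relative over its whole length was miR-3966, from chr10:97423493-97423513 on the plus strand, with 19 of 21 aligned bases identical. Among miRNAs whose gene has a probe on the array the closest had 12 identical bases, a number that 4 mature sequences reach, miR-182-5p (chr6:30165962-30165986, minus strand) among them. Capitals mark the bases identical to miR-22-3p in the best ungapped placement.
miR-3966: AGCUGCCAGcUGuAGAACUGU
miR-182-5p: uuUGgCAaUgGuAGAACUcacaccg
No probe on the array is named for miR-3966, and its part in the miR-22 signal was not tested.

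The arrays themselves differed. The detector gain was equal, but the laser power reading of the Cy3 channel was 3.17 with BMP7 and 2.45 with vehicle. The median local background in that channel was 4649 intensity units with BMP7 and 3756 with vehicle, and 57.3% and 39.6% of all spots lay below their own background. Spots named Cy3 Control, in contrast, were dimmer with BMP7 (median 29939.5 against 35681.5 over 192 spots). A miRNA was taken as detected where at least 2 of its 4 spots exceeded their background by 2 standard deviations of the array's backgrounds (948 units with BMP7 and 1152 with vehicle). This held for 41 miRNAs with BMP7, 58 with vehicle, 34 on both arrays and 65 on 1 or both. All 5 mesenchymal markers looked at were detected, miR-199a, miR-214, miR-145 and miR-21 on both arrays and miR-143 with vehicle only. Of the markers of other cell types, 1 of 6 blood cell probes (miR-223), 1 of 6 epithelial probes (miR-141) and 2 of 9 pluripotent cell probes (miR-290 and miR-291-5p) were detected, and none of the 3 neuronal, 4 muscle and 1 liver probes. MiR-223 was detected on both arrays, and miR-141, miR-290 and miR-291-5p with vehicle only. The vehicle spots of miR-141 were widely scattered, from -1301 to 2126 units above background.

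MiR-22 stood clear of its background on both arrays and was brighter in the Cy3 channel with BMP7 at all 4 places. With BMP7 the spots read 10791, 10828, 10902 and 12849 intensity units, over local backgrounds of 5103, 5178, 5182 and 5049. With vehicle the same places read 7077, 7185, 7367 and 7270, over backgrounds of 4228, 4511, 4251 and 3732. The dimmest BMP7 spot was thus above the brightest vehicle spot before any processing. The fourth BMP7 spot was the highest, and the other BMP7 spots lay close together.

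Above background, the BMP7 spots held 5688, 5650, 5720 and 7800 units, with a mean of 6214 ± 1058 (SD, 4 spots). The vehicle spots held 2849, 2674, 3116 and 3538 units, with a mean of 3044 ± 376 (SD, 4 spots). Each BMP7 spot exceeded its background by 11.9 to 16.5 standard deviations of the array's backgrounds, and each vehicle spot by 4.64 to 6.14. The ratio of the means was 1.57 before the background was subtracted and 2.04 after it. Place by place, the ratio above background ran from 1.84 to 2.20.

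**Figure D1:**
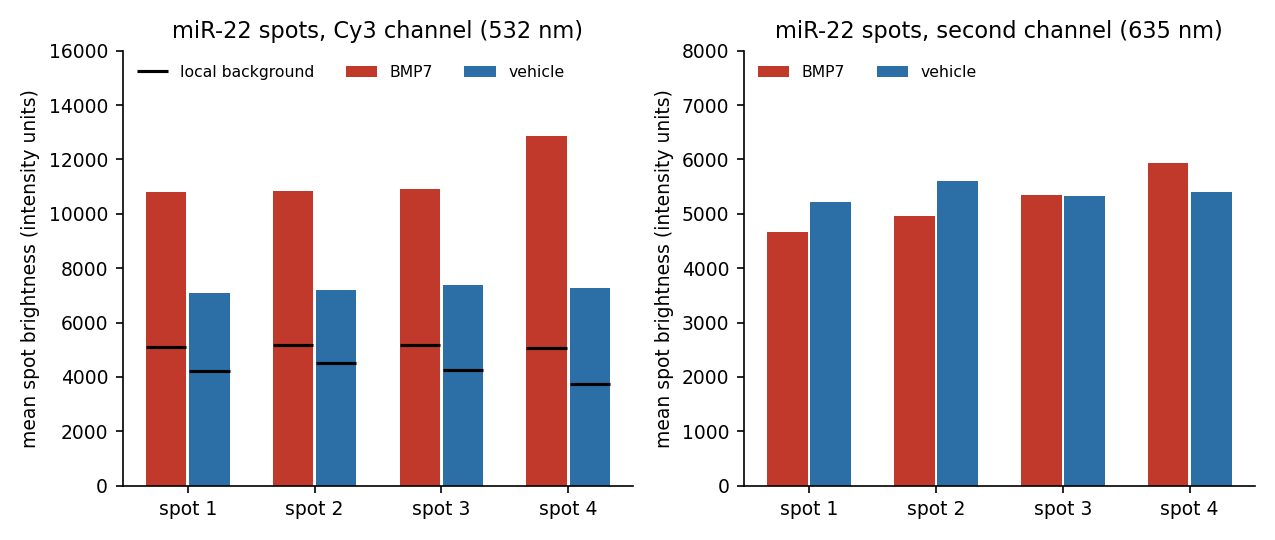
Mean brightness of the 4 miR-22 spots (intensity units, bars from 0) on the BMP7 and vehicle arrays, in the Cy3 channel on the left with the local background as a black line and in the second channel on the right, with a scale of its own. In the Cy3 channel every BMP7 spot is at 10791 or above and every vehicle spot at 7367 or below, while in the second channel the arrays overlap.

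After background correction and quantile normalization, which give both arrays the same spread of values, the log2 levels with BMP7 were 13.08, 13.06, 13.09 and 13.47 (mean 13.18 ± 0.20 SD). With vehicle they were 11.98, 11.87, 12.10 and 12.26 (mean 12.05 ± 0.17 SD). The groups did not overlap: the lowest BMP7 spot was 0.81 above the highest vehicle spot. The log2 change, BMP7 minus vehicle, was 1.12 ± 0.13 (SE over spots), a 2.18-fold higher level. The spots paired by their place changed by 0.996 to 1.21, so none of the 4 places alone carried the difference. Leaving out 1 place at a time gave 1.10 to 1.17.

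In order of brightness MiR-22 moved from place 17 of the 58 detected miRNAs with vehicle to place 4 of the 41 with BMP7. In raw Cy3 brightness it was at place 16 with vehicle and at place 3 with BMP7 among all 256 mouse probes. These are orders of brightness and not of abundance, since probes differ in how they bind. In order of change it held place 2 of the 65 detected miRNAs, whose median change was -0.03, with 31 higher and 34 lower.

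Of the 65 detected miRNAs, 3 (4.62%) were at least 2-fold higher and 12 (18.5%) had BMP7 spots that all lay higher than the vehicle spots; miR-22 was among both, which was known when it was chosen. Its gap between the groups of spots, 0.81, was the widest among the miRNAs higher with BMP7 with this processing, and let-7e, lower with BMP7, had a wider one of 0.95. Its standard error was near the middle of the 34 miRNAs detected on both arrays, at place 16 from the smallest, where the median was 0.13.

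The neighbours of miR-22 in the order of change differed in how firmly their spots stood apart. MiR-23b, in front of it, had a log2 change of 1.45 ± 1.02. Its BMP7 spots ran from 12.15 to 12.47 and its vehicle spots from 7.88 to 12.22, so that the groups overlapped and 1 low vehicle spot weighed on the mean. MiR-223, a miRNA of myeloid cells, followed at 1.01 ± 0.12, then miR-140_AS, a strand of a cartilage miRNA, at 0.95 ± 0.21, and miR-199a at 0.94 ± 0.18. In these last 3 the groups of spots did not overlap. MiR-22 differed from each of these 3 by less than the sum of both standard errors, so their order is not settled, and it changed with the processing: with cyclic loess miR-140_AS was at 1.26 and miR-22 at 1.12, and with no background correction miR-22 was first, at 0.82.

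**Figure D2:**
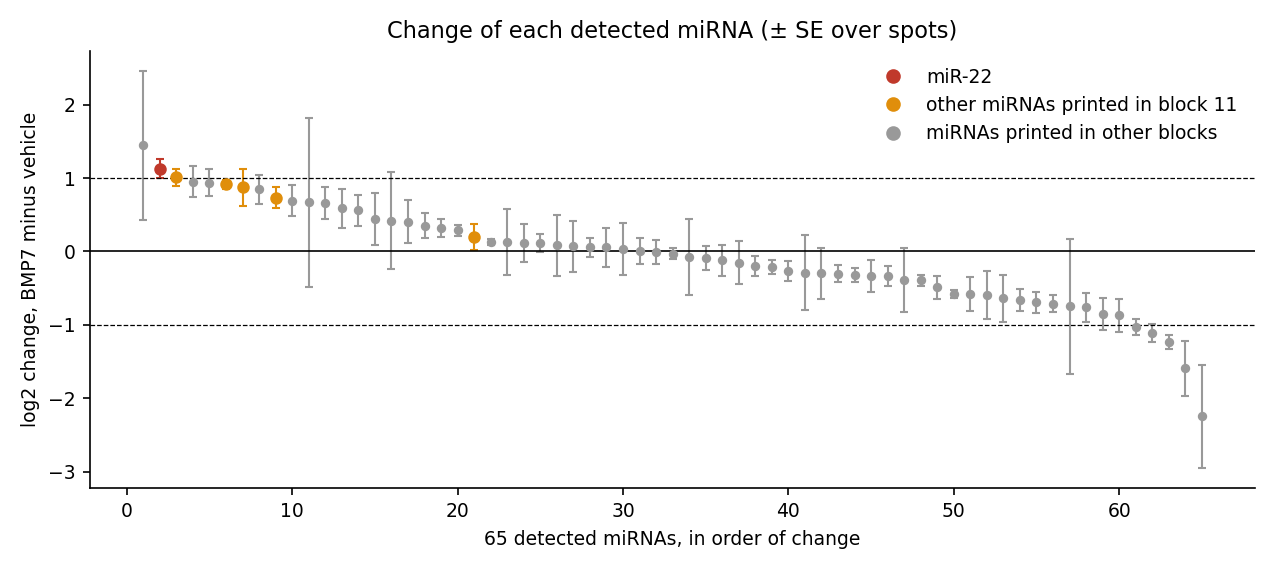
Log2 change, BMP7 minus vehicle, of each of the 65 detected miRNAs in order of size, with the standard error over spots; dashed lines mark 2-fold. MiR-22 (red) is at place 2, at 1.12, and the other miRNAs printed in the same block of the array (orange) are all above 0.

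The miRNAs whose pattern was most like that of miR-22, by the distance between the levels on the BMP7 and vehicle arrays jointly, were miR-199a (distance 0.40), miR-21 (0.58), miR-16 (0.65), miR-199a_AS (0.71) and miR-24 (0.81). With only 1 array per group this likeness rests on 2 values for each miRNA. The nearest, miR-199a, had BMP7 spots from 12.58 to 13.16 and vehicle spots from 11.66 to 12.21, a rise without overlap from a slightly lower level. MiR-199a_AS was alike in this, at 0.85 ± 0.20. MiR-21 lay nearby in level and changed less, at 0.32 ± 0.12, with its spots just apart after normalization. Before it, they overlapped above background, at 3911 to 5107 units with BMP7 and 3677 to 4411 with vehicle. MiR-16 was at 0.59 ± 0.27 and miR-24 at -0.0073 ± 0.16, both with overlapping spots.

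None of the mature sequences of these 5 shares the seed of miR-22, and none had more than 11 bases identical to it. For comparison the seeds (capitals) of the 3 nearest in pattern are printed.
miR-199a-5p: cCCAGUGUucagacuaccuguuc
miR-21a-5p: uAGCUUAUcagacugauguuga
miR-16-5p: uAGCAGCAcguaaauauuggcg

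**Figure D3:**
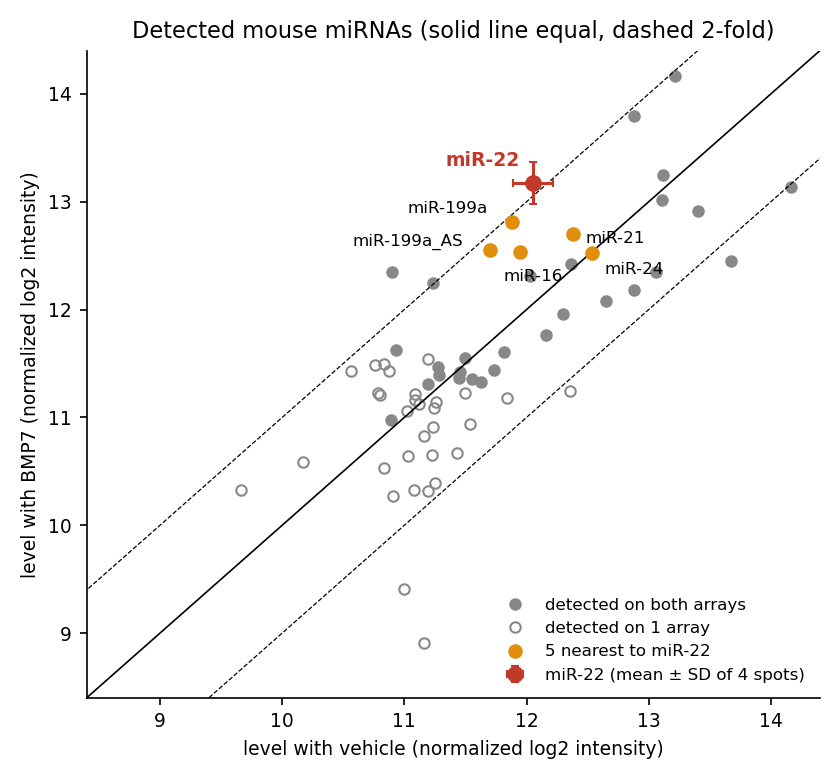
Normalized log2 level with vehicle (horizontal) and with BMP7 (vertical) for the 65 detected miRNAs, filled where detected on both arrays. MiR-22 (red, mean ± SD of 4 spots) is at 12.05 and 13.18, just above the upper dashed 2-fold line, and its 5 nearest neighbours are in orange.

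The place of the spots on the array moved with the result. Every probe has all its spots in 1 of 16 printed blocks, and those of miR-22 are in block 11. The median log2 change over all spots of a block ran from -0.74 to 0.77, and block 11 had the highest. Of its 92 spots for other probes, 76 had a change above 0 and 23 a change above that of the miR-22 spot that moved least. All 6 detected miRNAs of the block were higher with BMP7, and in 5 of them the groups of spots did not overlap, against 7 higher without overlap among the 59 detected in other blocks. Besides miR-22 those 5 were miR-223, miR-214 at 0.91 ± 0.06, and, detected with BMP7 only, miR-221 at 0.87 ± 0.25 and miR-30a-5p at 0.73 ± 0.15. With vehicle miR-221 and miR-30a-5p lay under the detection margin, so the size of their fitted changes is uncertain. The sixth, miR-328, was at 0.20 ± 0.18 with overlapping spots.

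Set against the median change of the other spots of its block, 0.73, miR-22 was 0.39 higher. It was at place 11 of the 65 after subtraction of a block median for all. For the other miRNAs that median included their own spots, which in block 11 made it 0.77. Of the bright probes in the block, miR-214 moved by 0.91 at 12158 units above background with BMP7 and 7396 with vehicle, and miR-223 by 1.01 at 3271 and 1257 units. In intensity units the spots of block 11 moved by a median of 178, against -433 over all probes and a range of -1114 to 181 over the blocks. The mean of miR-22 moved by 3170 units. Measured over the median of its block, miR-22 held 6340 units with BMP7 and 3282 with vehicle, a 1.93-fold difference (log2 0.95), and the lowest BMP7 spot (5775) stayed above the highest vehicle spot (3776). The part of the block in the log2 change was not tested beyond these values.

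**Figure D4:**
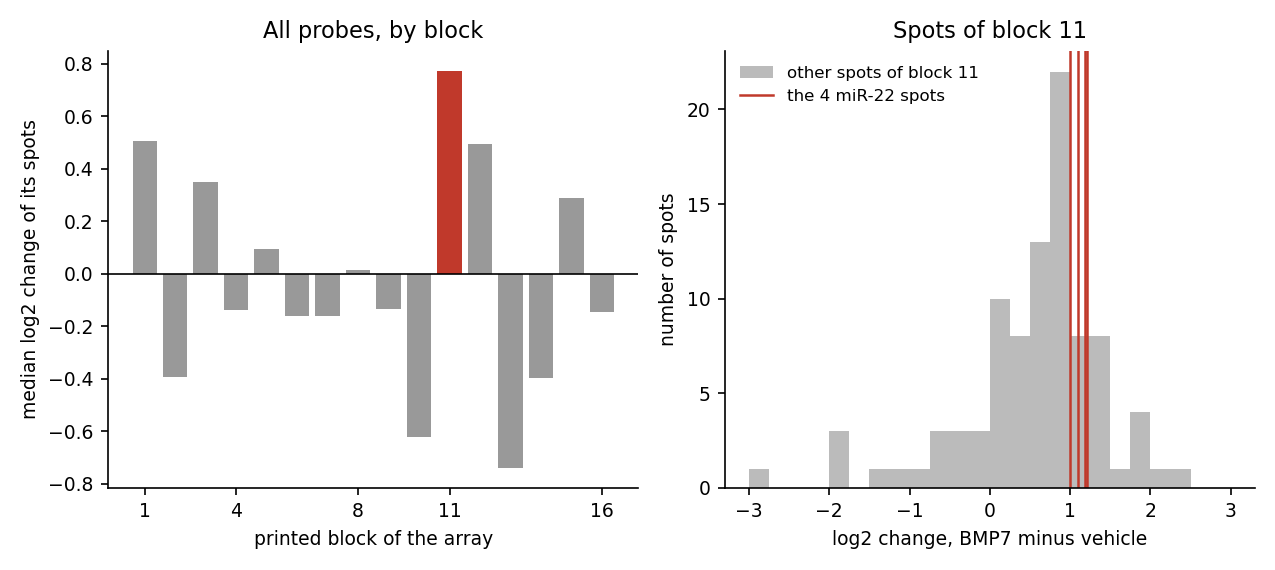
Left, the median log2 change over all probe spots of each of the 16 printed blocks, with block 11 in red at 0.77. Right, the number of spots of block 11 by their log2 change, with the 4 miR-22 spots as red lines between 0.996 and 1.21, inside the upper part of the spread of the block.

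The spots adjoining miR-22 were dimmer than it. On the BMP7 array the 20 adjoining spots read 3176 to 7604 units, and on the vehicle array 2250 to 4457, all below the miR-22 spots of the same array. None exceeded its background by the detection margin with vehicle, and 2 did with BMP7, where the largest excess was 2461 units, in a miR-221 spot.

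In the second channel, for which no source used here names the content, miR-22 showed no difference of that kind. The BMP7 spots read 4658, 4958, 5350 and 5930 units and the vehicle spots 5226, 5606, 5321 and 5394. The groups overlapped: spots 1 and 2 were lower with BMP7, spot 4 was higher and spot 3 nearly equal. The means were 5224 ± 549 and 5387 ± 162 (SD, 4 spots), a log2 change of -0.044. Over all 377 probes the median in this channel was -0.12, and relative to it miR-22 was at 0.078, the opposite sign. Per the file headers the wavelengths of the BMP7 array came from 2 image files and those of the vehicle array from 1.

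In the authors' deposited table the miR-22 row held 0.124 for BMP7 and 0.0656 for vehicle, a 1.89-fold higher value (log2 0.92). For the array's probes that table holds the Cy3 over the second-channel brightness, averaged over the spots and divided by the same mean for the 16 spots named Control_1. Rebuilding this from the spots gave the authors' deposited value within 0.1% for 336 of 339 rows with BMP7 and 337 with vehicle, miR-22 included. For miR-22 the ratio itself went from 1.34 ± 0.04 with vehicle to 2.18 ± 0.11 with BMP7 (SD, 4 spots), which is 0.70 of the 0.92 on the log2 scale. The remaining 0.22 came from the Control_1 reference, which was 20.5 with vehicle and 17.5 with BMP7 and lowers or raises every row alike.

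The log2 folds of the authors' deposited table are not centred on 0: 314 of its 339 array rows were higher with BMP7, with a median of 0.54. Relative to that median miR-22 was at 0.38. It held place 35 of the 339 rows by fold, under the 2-fold mark that 26 rows (7.67%) reached. Among the 64 detected miRNAs that the authors' deposited table holds it was at place 4, behind miR-140_AS at 1.29, miR-92 at 1.07 and miR-199a at 0.97. In order of value it went from place 154 of the 339 rows with vehicle, near the middle, to place 108 with BMP7. In Cy3 brightness alone, in contrast, it was among the highest.

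MiRNAs known from human or mouse work to bind messenger RNAs of BMP ligands, BMP receptors or SMADs gave 8 detected members of 20 on the array. Of these 8, 2 were at least 2-fold higher (miR-22 and miR-23b, beside 4.62% of all detected) and 0 at least 2-fold lower (beside 7.69%). In 4 all BMP7 spots lay above (beside 18.5%) and in 1 all lay below (beside 23.1%). Both counts of higher members hold miR-22, which was chosen for its rise, so that part was fixed in advance. MiR-21, known to bind the messenger RNA of the BMP receptor BMPR2 in human cells, had spots that overlapped above background before normalization. The higher members with spots apart after it were miR-22, miR-199a, miR-21 and miR-30a-5p, the last at 0.73 ± 0.15 and detected with BMP7 only. Minus the median change of their own blocks these 4 were at 0.39, 0.65, -0.19 and -0.041 in that order, so that miR-21 and miR-30a-5p turned sign. In every block the median brightness above background was under the detection margin on both arrays. In that of miR-21 it was -495 units with BMP7 and -431 with vehicle, so the log2 change subtracted rests mostly on spots without detected signal. The comparison with block brightness given for miR-22 was not made for the other members. MiR-23b rests on 1 low vehicle spot, which read 304 units in the second channel where the other vehicle spots read 4296 to 4992. Its change was 0.16 with no background correction and -0.72 in the authors' deposited table. MiR-26a, known to bind the SMAD1 messenger RNA in human cells, was lower at -0.40 ± 0.08, with BMP7 spots from 11.63 to 11.91 and vehicle spots from 12.05 to 12.26. MiR-125b was at 0.06 ± 0.13 with overlapping spots, and miR-135b was detected with vehicle only and had overlapping spots. The list's median was 0.52 with miR-22 and 0.32 without it, against -0.03 over all 65, and 0.12 with no background correction. The 12 members not detected, among them miR-302a to miR-302d and miR-30b to miR-30d, are given no fold.

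MiRNAs known from fat, bone or cartilage formation gave 15 detected members of 23. Of these 15, 1 (miR-22) was at least 2-fold higher (beside 4.62% of all detected) and 0 were at least 2-fold lower (beside 7.69%). In 6 all BMP7 spots lay above (beside 18.5%), in 2 all lay below (beside 23.1%), and 7 overlapped. Those above, besides miR-22, were miR-199a, miR-214, miR-140 at 0.69 ± 0.21, miR-21 and miR-221. Here too the counts of higher members hold miR-22, which was chosen for its rise. Above background and before normalization, the spots of miR-140, miR-21 and miR-221 overlapped between the arrays. Minus their block medians miR-199a was at 0.65, miR-140 at 0.40, miR-214 at 0.14, miR-221 at 0.099 and miR-21 at -0.19. Those below were miR-145 at -0.57 ± 0.05 and miR-130a, known to restrain fat formation, at -0.66 ± 0.15 and detected with vehicle only. Minus their block medians they were at 0.17, the opposite sign, and -0.75. The block of miR-145 had a median of -557 units above background with BMP7 and 447 with vehicle, both under the detection margin. MiR-145 itself held 2462 to 3274 units with BMP7 and 5178 to 6172 with vehicle, without overlap before normalization. Its brightness over that of its block was not compared. The bright members miR-31 (0.13 ± 0.04) and miR-138 (-0.09 ± 0.16), both known from work on the restraint of bone formation, had overlapping spots after normalization. Before it, both were lower with BMP7 without overlap. Above background miR-31 held 5963 to 6282 units with BMP7 and 8869 to 10127 with vehicle, and miR-138 held 4538 to 6106 and 7317 to 11633. Normalized spots also overlapped for miR-27a at 0.11 ± 0.12, miR-103 at -0.08 ± 0.52 and miR-222 at 0.05 ± 0.27. The list's median was 0.11, and -0.0012 with cyclic loess, so the median has no settled sign, and miR-22 stood at its upper end.

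Across the ways of processing that were tried, the change of miR-22 stayed above 0 in all 18 alternatives and was at least 2-fold in 12. It was lowest, at 0.39, after subtraction of the block median, at 0.82 with no background correction and at 0.85 with no normalization between arrays, and highest, at 1.47, with plain subtraction of the background.

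**Figure D5:**
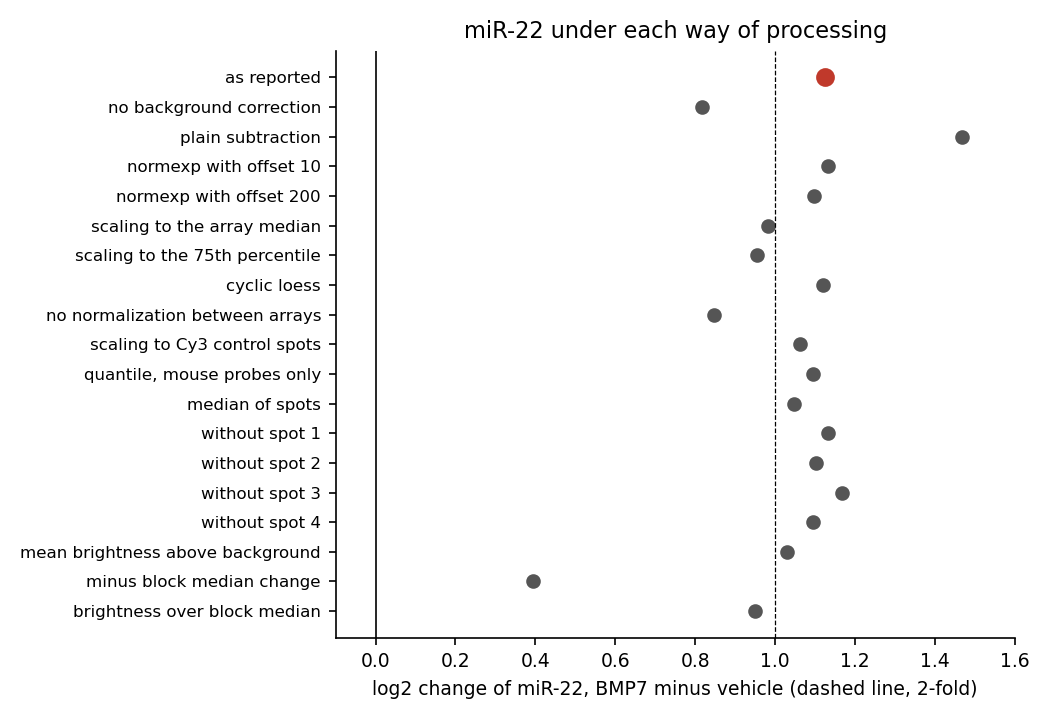
Log2 change of miR-22, BMP7 minus vehicle (horizontal), as reported (red, 1.12) and under each of 18 alternatives (grey). All lie above 0, between 0.39 and 1.47, and the dashed line marks 2-fold.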

How the data were processed

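The authors deposited 1 GenePix export per array, whose intensity columns hold the mean brightness of each spot in both channels, read by the scanner with no background subtracted and no normalization, per the file headers. The sum and ratio of the background-subtracted means, deposited beside them, were used as a score from which each local background was solved (for 1728 spots with BMP7 and 1727 with vehicle, and 1 from its block's median). The authors' deposited table and the value matrix hold ratio values, equal within 0.001% in all 339 array rows, and no source used here says how they were made. The Cy3 intensity was corrected with normexp (offset 50, limma 3.58.1, R 4.3.3), 220 control spots were removed, and the arrays were quantile normalized. The mean was then taken of the log2 values of a probe's 4 spots. Tables used Python 3.11.15, numpy 2.4.6 and pandas 2.3.3. The steps were tried on a simulated array made from the vehicle array with the same local backgrounds. It could not test the differences in background or printed block seen between the real arrays.

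Where only 1 array detected a miRNA, its change is the fitted difference between the means of the arrays. Its level on the other array was not detected, so the size of that change is uncertain. Counts and medians use the same fitted values. Probe names were matched to RefSeq mouse genes (GRCm38.p6), which left out 23 further probes of a gene, 65 without a mouse gene and 33 designed by the maker. No source used here names a build for the array. MiR-22 and the lists were chosen with earlier results of these data known. Besides miR-22, the text names the 5 detected miRNAs nearest to it in level on both arrays, up to 3 next to it on each side in the order of change, list members detected on both arrays and the miRNAs nearest in sequence. The miRNAs of block 11, list members detected on 1 array and the detected markers were named after their values were seen.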

Additional observations from a re-analysis of the deposited data

How the results depend on the processing

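No paired analysis was possible because each group has 1 array. The settings by block, the brightness above background and the lists without miR-22 were chosen after seeing the data. A change was taken as moved where it differed by more than the standard error over spots. The change of miR-22 was 0.82 with no background correction, 1.47 with plain subtraction, 0.98 with scaling to the array median, 0.96 to the 75th percentile, 0.85 with no normalization, 0.39 minus its block's median change and 0.95 over its block's median brightness; the other 11 alternatives lay within that error. Its place by change was 1 with no background correction, 9 with plain subtraction, 4 with 75th percentile scaling and with Cy3 control scaling, 12 among all mouse probes and 11 minus block medians. Its place by level stayed at 3 or 4 with BMP7 and at 16 or 17 with vehicle. The gap between its groups of spots was 1.03 with plain subtraction and 0.59 with no normalization. In the second channel it turned from -0.044 to 0.078 relative to the array median, and in the authors' deposited table it was 0.38 relative to the median of the rows. The median of the miRNAs that bind BMP pathway messenger RNAs was 0.12 with no background correction and 0.32 without miR-22, and that of the fat, bone and cartilage miRNAs was -0.0012 with cyclic loess. Counts of miRNAs at least 2-fold higher and lower were 3 and 5 as reported, 0 and 0 with no background correction, and 15 and 20 with plain subtraction. The cause was not tested. The signal of most probes lay near background, which limits what was detected.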
